A study of Mus musculus with 32 samples.

Results

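The 38 genes described here belong to the integrated stress response to amino acid shortage and to the unfolded protein response of the endoplasmic reticulum (ER). They were chosen as a named list of pathway genes, with no threshold on the measured values but with earlier results of these data known. Each of the 38 was measured by a probe set that the array annotation pairs with that gene alone, among 19938 genes measured that way. By role they are 9 regulators and brakes, 11 serine, one-carbon and other amino acid enzymes, 6 amino acid transporters, 8 ER chaperones and folding enzymes, and Xbp1 with 3 genes of ER-associated degradation. Only Pdia4 had more than 1 such probe set.

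Total RNA of 4 mouse macrophage lines was hybridised to 32 Affymetrix Mouse Gene 1.0 ST arrays, 2 per group (I and II), which the design text calls biological replicates. The lines carry the prefix M-/- in the labels, followed by WT, Y721F, 3ABY721 or 3AB, the names used here. They differ in their receptor for colony stimulating factor-1 (CSF-1), the growth factor of macrophages: WT and 3ABY721 have its Tyr-721, whereas Y721F and 3AB lack it. Every group shared the M-/- background and the culture medium, α-MEM and newborn calf serum with human recombinant CSF-1 at 120 ng/mL. That is the medium of routine culture, from which CSF-1 was withheld when cells were starved. For the steady state, cells of each line were either starved of CSF-1 or kept growing in it (8 groups). For the time course, CSF-1 was returned to overnight-starved cells of WT and Y721F, with RNA taken at 0, 20, 60 and 180 min (8 groups). Since receptor and line go together, Tyr-721 and anything else in which 2 lines differ cannot be told apart.

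When amino acids run short or unfolded proteins fill the ER, kinases phosphorylate the initiation factor eIF2, general translation slows, and the mRNA of the transcription factor Atf4 is translated more. Atf4 then drives genes that make, import and recycle amino acids, together with Chac1, Sesn2 and Trib3, the last a brake of the response. The ER arm works through Atf6 and through Xbp1, whose mRNA is spliced by Ire1, and raises chaperones such as Hspa5 (BiP). In growing cells Atf4 also serves anabolic growth downstream of mTORC1, and in macrophages CSF-1 is the signal for growth. Splicing of Xbp1 and translation of Atf4 cannot be read from a probe set, which measures total mRNA.

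The letters by which Atf4 and the ER factors are known to recognise DNA stand in the promoters of several of these genes. RefSeq promoter windows (GRCm38.p6), 250 bases before to 50 after an annotated start, were given for 33 of the 38 genes; Manf, Aldh1l2, Eif4ebp1, Cth and Slc7a5 were not matched. The ATF4 composite element was searched as TGATGNAAN and the ER stress element as CCAAT and CCACG with 9 bases of any kind between them, on both strands, and the 2 motifs share no position with each other. The first occurs in 9 of 33 genes (27.3%), against 4.50% of the 27025 genes with a window, and the second in 4 of 33 (12.1%), against 0.137%. The list holds known targets of these factors, so these shares describe the list and test nothing, and a match is a run of letters, not a measured site. The 9 genes are Asns, Chac1, Trib3, Slc7a11, Slc1a4, Vldlr, Pck2, Nupr1 and Herpud1. The 4 genes are Hspa5, Hsp90b1, Pdia6 and Creld2. Neither set overlaps the other. The windows below are shown for 4 genes of the amino acid arm and 2 ER chaperones, whose signals are followed through the text. They read 5′ to 3′ on the gene's own strand, with the matched letters in capitals. Asns (chr6:7693210-7693459, minus strand), Chac1 (chr2:119350992-119351241, plus strand) and Slc7a11 (chr3:50443614-50443863, minus strand) carry the ATF4 composite element, the last one on both strands. A stretch of Trib3 (chr2:152344028-152344057, minus strand) carries it just after the start. Hspa5 (chr2:34771840-34772089, plus strand) and Hsp90b1 (chr10:86705445-86705694, minus strand) carry the ER stress element.
Asns: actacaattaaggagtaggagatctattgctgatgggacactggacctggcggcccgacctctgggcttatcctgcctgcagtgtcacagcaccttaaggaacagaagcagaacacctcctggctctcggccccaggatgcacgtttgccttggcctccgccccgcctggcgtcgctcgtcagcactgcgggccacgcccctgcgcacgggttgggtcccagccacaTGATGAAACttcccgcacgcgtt
Chac1: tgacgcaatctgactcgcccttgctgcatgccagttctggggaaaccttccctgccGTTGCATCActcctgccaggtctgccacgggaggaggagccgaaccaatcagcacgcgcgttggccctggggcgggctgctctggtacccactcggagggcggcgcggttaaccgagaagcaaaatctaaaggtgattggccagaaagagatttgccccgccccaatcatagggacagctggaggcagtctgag
Slc7a11: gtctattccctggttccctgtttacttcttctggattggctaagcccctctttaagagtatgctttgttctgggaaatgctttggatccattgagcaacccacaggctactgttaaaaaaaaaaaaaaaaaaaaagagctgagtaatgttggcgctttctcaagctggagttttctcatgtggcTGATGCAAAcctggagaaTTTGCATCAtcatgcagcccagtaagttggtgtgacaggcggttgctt
Trib3: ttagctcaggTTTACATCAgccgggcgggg
Hspa5: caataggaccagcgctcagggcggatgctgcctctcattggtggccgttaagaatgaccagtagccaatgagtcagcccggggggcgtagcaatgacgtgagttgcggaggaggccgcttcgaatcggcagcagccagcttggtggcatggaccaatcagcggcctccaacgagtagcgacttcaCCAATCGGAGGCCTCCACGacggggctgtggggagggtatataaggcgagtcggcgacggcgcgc
Hsp90b1: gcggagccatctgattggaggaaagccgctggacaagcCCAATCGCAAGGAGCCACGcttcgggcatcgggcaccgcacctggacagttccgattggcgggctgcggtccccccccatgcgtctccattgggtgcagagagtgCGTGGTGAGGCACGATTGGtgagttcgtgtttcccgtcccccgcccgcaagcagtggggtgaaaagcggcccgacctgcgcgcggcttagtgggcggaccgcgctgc

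With the last base before the start counted as -1 and the start base as 1, the Asns match lies at -23 to -15 and the Hspa5 match at -65 to -47. The Chac1 match lies at -194 to -186, and the Trib3 match at 14 to 22, inside the transcript. Slc7a11 has a match at -66 to -58 and another at -48 to -40, facing each other. Hsp90b1 has 2 matches of the ER stress element, at -212 to -194 and at -107 to -89.

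**Figure D1:**
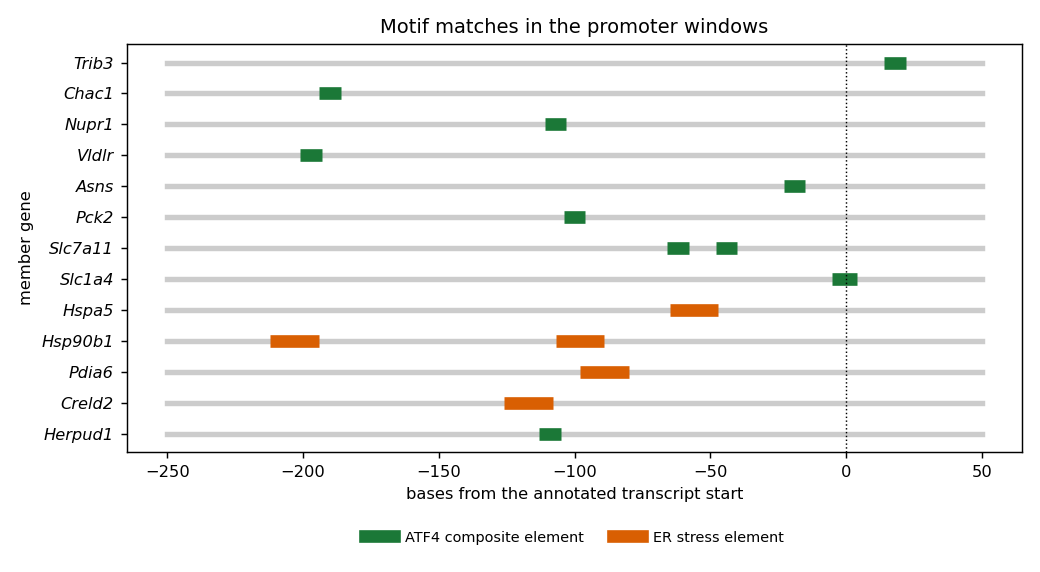
Matches of the ATF4 composite element (green) and the ER stress element (orange) in the promoter windows of the 13 genes that hold either; the x axis gives bases from the annotated transcript start (dotted line) and the grey bars the window. The green matches lie between -201 (Vldlr) and 22 (Trib3), and Slc7a11 and Hsp90b1 have 2 matches each.

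Values are log2 signals of a probe set. Levels of different probe sets are not comparable, so each gene is compared only with itself. All 10 macrophage markers had a mean above the median gene in the 32 arrays, and 0 of 4 dendritic cell, 0 of 7 granulocyte and mast cell and 0 of 4 lymphocyte markers did. Of 5 fibroblast markers 4 did (Col1a1, Col1a2, Col3a1 and Pdgfra), with values of the list between 4.47 and 9.64 and array means between 5.99 and 7.04; their part in the results was not tested. Csf1r, the receptor gene, read 12.72 to 13.41, a probe set that cannot tell the receptor variants from each other. The upper quartile of an array's signal was 8.20 to 8.23 in starved Y721F of the steady state and 8.26 to 8.43 in the other steady-state arrays. In RNA from whole cultures, fewer cells of a type and less RNA per cell cannot be told apart.

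A gene is called, and said to rise or fall, where limma's p adjusted over 19938 genes (Benjamini-Hochberg) is under 0.05 and its fold is above 1.5. Differences are log2, first-named group minus second, with limma's standard error (SE). The SE rests on a spread per gene estimated over all 16 arrays of the experiment, with 2 arrays per group. Arrays that differ within any group thus widen the SE in every line. The SE does not show the spread of only the arrays compared.

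Phgdh, of serine synthesis, and Aldh18a1, of proline synthesis, rose in cells grown in CSF-1 over starved cells in each of the 4 lines. Further amino acid genes rose in WT, Y721F and 3ABY721, and none of the 8 ER chaperones passed the test in any line. In WT 6 of 38 genes rose (2.30% of all genes rose), in Y721F 15 (3.48%), in 3ABY721 5 (0.742%) and in 3AB 2 (0.431%). None of the 38 fell in any of them, against 3.01%, 1.46%, 0.672% and 0.256% of all genes. The median difference of the 38 was 0.19 in WT, 0.71 in Y721F, 0.32 in 3ABY721 and 0.28 in 3AB, beside -0.03, 0.01, 0 and -0.01 for all genes. Phgdh and Aldh18a1 rose in 4 of 4 lines, as did 0.211% of all genes. Psat1 and Mthfd2 rose in 3, so that 4 of the 38 rose in at least 3 lines, beside 0.517% of all genes. The 3ABY721 calls of Psat1 and Mthfd2 rest on every array of that comparison. Fitted with only the arrays compared, WT had 0 called genes (0.471% of all genes called) and Y721F 8 (1.08%). That fit called 9 in 3ABY721 (3.81%) and 1 in 3AB (0.858%). Comparisons below that use the same arrays, such as those of starved Y721F, are not independent of each other.

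**Figure D2:**
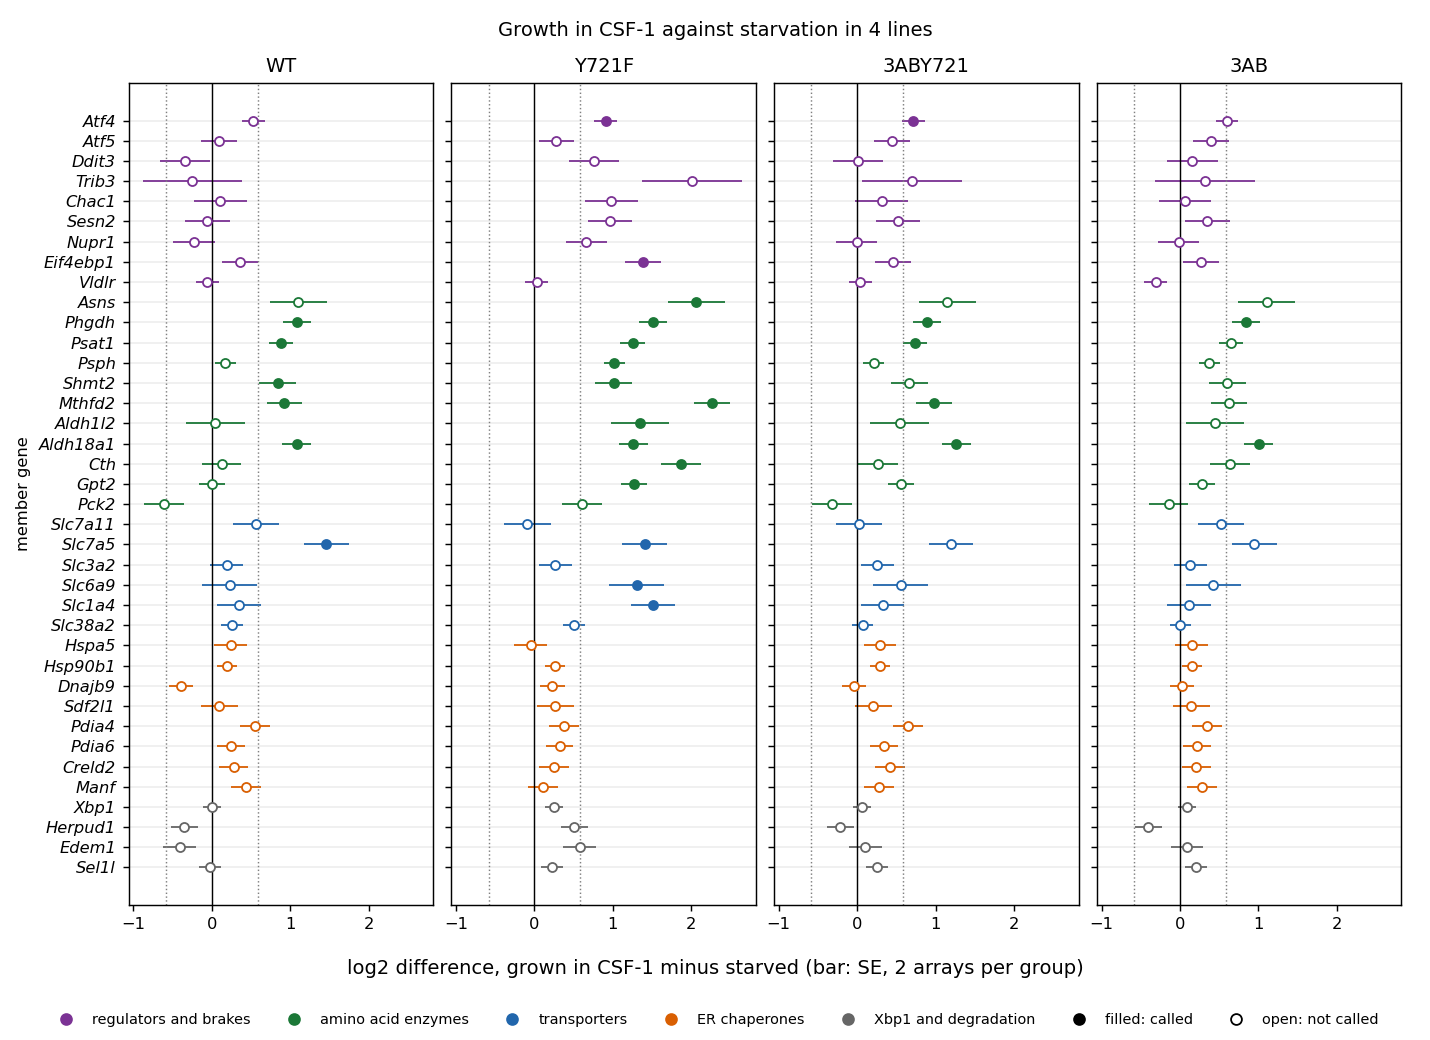
Log2 difference between cells grown in CSF-1 and starved cells for the 38 genes (rows) in the 4 lines (panels). Points are differences of 2 arrays against 2, and bars their SE, from a spread shared over the 16 steady-state arrays. Filled points are called, and dotted lines mark a fold of 1.5 either way. The green enzyme points lie mostly right of 0 in every panel, filled for 5 enzymes in WT and 10 in Y721F, and the orange ER chaperone points are not filled.

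Phgdh, the first enzyme of serine synthesis from glycolysis, read 8.48 and 8.16 in the 2 starved WT arrays and 9.31 and 9.51 in the grown ones. It read 7.65 and 7.31 against 8.97 and 9.01 in Y721F, 8.32 and 8.66 against 9.32 and 9.44 in 3ABY721, and 7.85 and 8.11 against 8.67 and 8.98 in 3AB. Grown and starved arrays did not overlap in any line, and starved Y721F held the lowest values. The differences were 1.09 (SE 0.18, adjusted p = 0.00273) in WT, 1.51 (SE 0.18, adjusted p = 0.000224) in Y721F, 0.89 (SE 0.18, adjusted p = 0.0190) in 3ABY721 and 0.85 (SE 0.18, adjusted p = 0.0411) in 3AB, all by limma. Aldh18a1, which makes the precursor of proline from glutamate, read 8.70 and 8.59 against 9.84 and 9.62 in WT and 8.79 and 8.07 against 9.68 and 9.70 in Y721F. It read 8.33 and 8.35 against 9.53 and 9.68 in 3ABY721, and 8.44 and 8.35 against 9.28 and 9.52 in 3AB. Its differences kept a narrow range over the lines, 1.01 to 1.27 (SE 0.19), without overlap of the arrays. The 3AB calls of both genes rest on every array, each being lost without any 1 of the 4 arrays of that comparison. That of Phgdh was also lost under quantile normalization and in the fit with only the arrays compared.

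Psat1, the second enzyme of serine synthesis, read 10.41 and 10.20 in starved and 11.30 and 11.07 in grown WT, and 10.07 and 9.94 against 11.07 and 11.44 in Y721F. Its rise was 0.88 in WT, 1.25 in Y721F and 0.74 in 3ABY721 (SE 0.15), and its difference of 0.66 in 3AB did not pass. Mthfd2, the mitochondrial folate enzyme that takes up the one-carbon units from serine, read 8.69 and 8.67 in starved and 9.78 and 9.43 in grown WT. In Y721F it went from 8.33 and 7.66 to 10.02 and 10.50, a 4.81-fold rise (2.27, SE 0.23, adjusted p = 6.60e-05 by limma). Its arrays were apart in all 4 lines; in 3AB the difference was 0.63 and was not called. Shmt2, which splits serine in mitochondria, rose by 0.84 in WT and 1.01 in Y721F (SE 0.23), and its grown WT arrays of 10.45 and 9.65 were further apart from each other than those of the other 3 enzymes.

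Asns, asparagine synthetase and a standard reporter of Atf4 activity, had the widest spread of the 38 over the 8 starved arrays, from 5.74 in 3AB to 8.39 in WT. It read 6.42 and 6.06 in starved and 7.81 and 8.79 in grown Y721F, a 4.17-fold rise (2.06, SE 0.36, adjusted p = 0.00418 by limma). In WT it read 8.39 and 7.17 starved and 9.0 and 8.77 grown, in 3ABY721 6.78 and 6.25 against 7.76 and 7.57, and in 3AB 5.99 and 5.74 against 6.64 and 7.30. Grown arrays lay above starved ones in each line, yet the differences of 1.11 in WT, 1.15 in 3ABY721 and 1.11 in 3AB (SE 0.36) did not pass (adjusted p = 0.0902, 0.165 and 0.240). Cth, the last enzyme of cysteine synthesis, rose in Y721F from 6.27 and 5.60 to 7.43 and 8.17 (1.87, SE 0.25), and its differences of 0.13 in WT, 0.27 in 3ABY721 and 0.64 in 3AB were not called. Psph, Gpt2 and Aldh1l2 also rose in Y721F, by 1.02, 1.27 and 1.35. Pck2, the mitochondrial enzyme that turns oxaloacetate into phosphoenolpyruvate, had another pattern: grown arrays lay below starved ones in WT, 3ABY721 and 3AB (-0.61, -0.32 and -0.14) and above them in Y721F (0.61), with 0 of these 4 differences called.

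Of the 6 amino acid transporters, Slc7a5, the light chain of the leucine carrier, had the largest difference in WT. There it went from 8.73 and 8.30 to 10.60 and 9.35 (1.46, SE 0.29, adjusted p = 0.00844 by limma). It went from 8.50 and 8.43 to 9.81 and 9.93 in Y721F (1.41, adjusted p = 0.0100). In 3ABY721 its arrays of 8.34 and 8.42 against 9.46 and 9.69 gave 1.20 (adjusted p = 0.0564) and in 3AB 0.95 (adjusted p = 0.193), with no overlap in either line. Its partner chain Slc3a2 differed by 0.13 to 0.27 and was not called. Slc1a4, a carrier of alanine, serine and cysteine, rose in Y721F from 5.73 and 5.66 to 6.63 and 7.78 (1.51, SE 0.28), and the glycine carrier Slc6a9 from 6.45 and 6.39 to 7.18 and 8.27 (1.31, SE 0.35). In both, array II of grown Y721F was the higher one by over 1. Slc7a11, the cystine importer, was not called in any line, with differences of 0.57 in WT, -0.09 in Y721F, 0.03 in 3ABY721 and 0.52 in 3AB (SE 0.30). Slc38a2, a carrier of small neutral amino acids, was not called either.

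Among the regulators, Atf4 read 9.51 and 9.32 in starved and 10.04 and 9.85 in grown WT, and 9.25 and 9.22 against 9.98 and 10.31 in Y721F. In 3ABY721 it read 9.24 and 9.08 against 9.90 and 9.85, and in 3AB 9.04 and 9.24 against 9.66 and 9.82. Grown arrays lay above starved ones in 4 of 4 lines, and it was called in Y721F (0.91, SE 0.15, adjusted p = 0.00222 by limma) and 3ABY721 (0.72, adjusted p = 0.0225). In WT its adjusted p by limma was 0.0459 but the difference of 0.53 was under the fold bound, and in 3AB 0.60 had an adjusted p of 0.0896. The Atf4 call in 3ABY721 rests on every array of that comparison, whereas that in Y721F was kept without any 1 array. Eif4ebp1, the repressor of cap-dependent translation, rose in Y721F from 9.51 and 9.51 to 10.48 and 11.31 (1.39, SE 0.23) and was not called in the other lines (0.27 to 0.46). The stress factor Ddit3 (CHOP) differed by -0.34 in WT, 0.77 in Y721F, 0.01 in 3ABY721 and 0.16 in 3AB, without a call. Trib3 (-0.25 to 2.01), Chac1 (0.07 to 0.98), Sesn2 (-0.06 to 0.97), Nupr1 (-0.23 to 0.66) and Atf5 (0.10 to 0.44) were not called in any line. The upper ends of the ranges of Trib3, Chac1, Sesn2 and Nupr1 are those of Y721F, and without array II of grown Y721F they were 0.53, 0.20, 0.31 and 0.08. Vldlr, whose probe set read about 5.08 on average, with 23.7% of genes lower, gave differences of -0.31 to 0.04.

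The ER chaperones gave small differences on growth, mostly upward. Their medians ran from 0.18 in 3AB to 0.29 in 3ABY721, beside -0.025 to 0.005 for all genes. Grown arrays lay above starved ones in 6 of 8 chaperones in WT (19.5% of all genes) and below them in 1 (24.7%). They lay above in 7 in 3ABY721 (24.5%), 7 in 3AB (26.2%) and 2 in Y721F (25.1%). Hspa5 read 12.45 and 12.66 in starved and 12.78 and 12.81 in grown WT (0.24, SE 0.21, adjusted p = 0.599 by limma), and its difference was 0.29 in 3ABY721, 0.15 in 3AB and -0.05 in Y721F. Hsp90b1 (GRP94) was the 1 chaperone whose grown arrays lay above starved ones in 4 of 4 lines, by 0.15 to 0.30. Arrays apart and higher in 4 of 4 lines were found in 9 of the 38 genes, against 6.07% of all genes, and the other 8 were Atf4, Asns, Phgdh, Psat1, Shmt2, Mthfd2, Aldh18a1 and Slc7a5. Pdia4, a disulfide isomerase, had the largest chaperone difference, 0.65 in 3ABY721, also not called. Pdia6, Creld2, Manf and Sdf2l1, further folding factors, gave 0.10 to 0.44, and Dnajb9 -0.40 to 0.23. Xbp1 differed by 0 to 0.25 over the lines, and Herpud1, Edem1 and Sel1l, which act in the removal of misfolded proteins, were called in none.

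**Figure D3:**
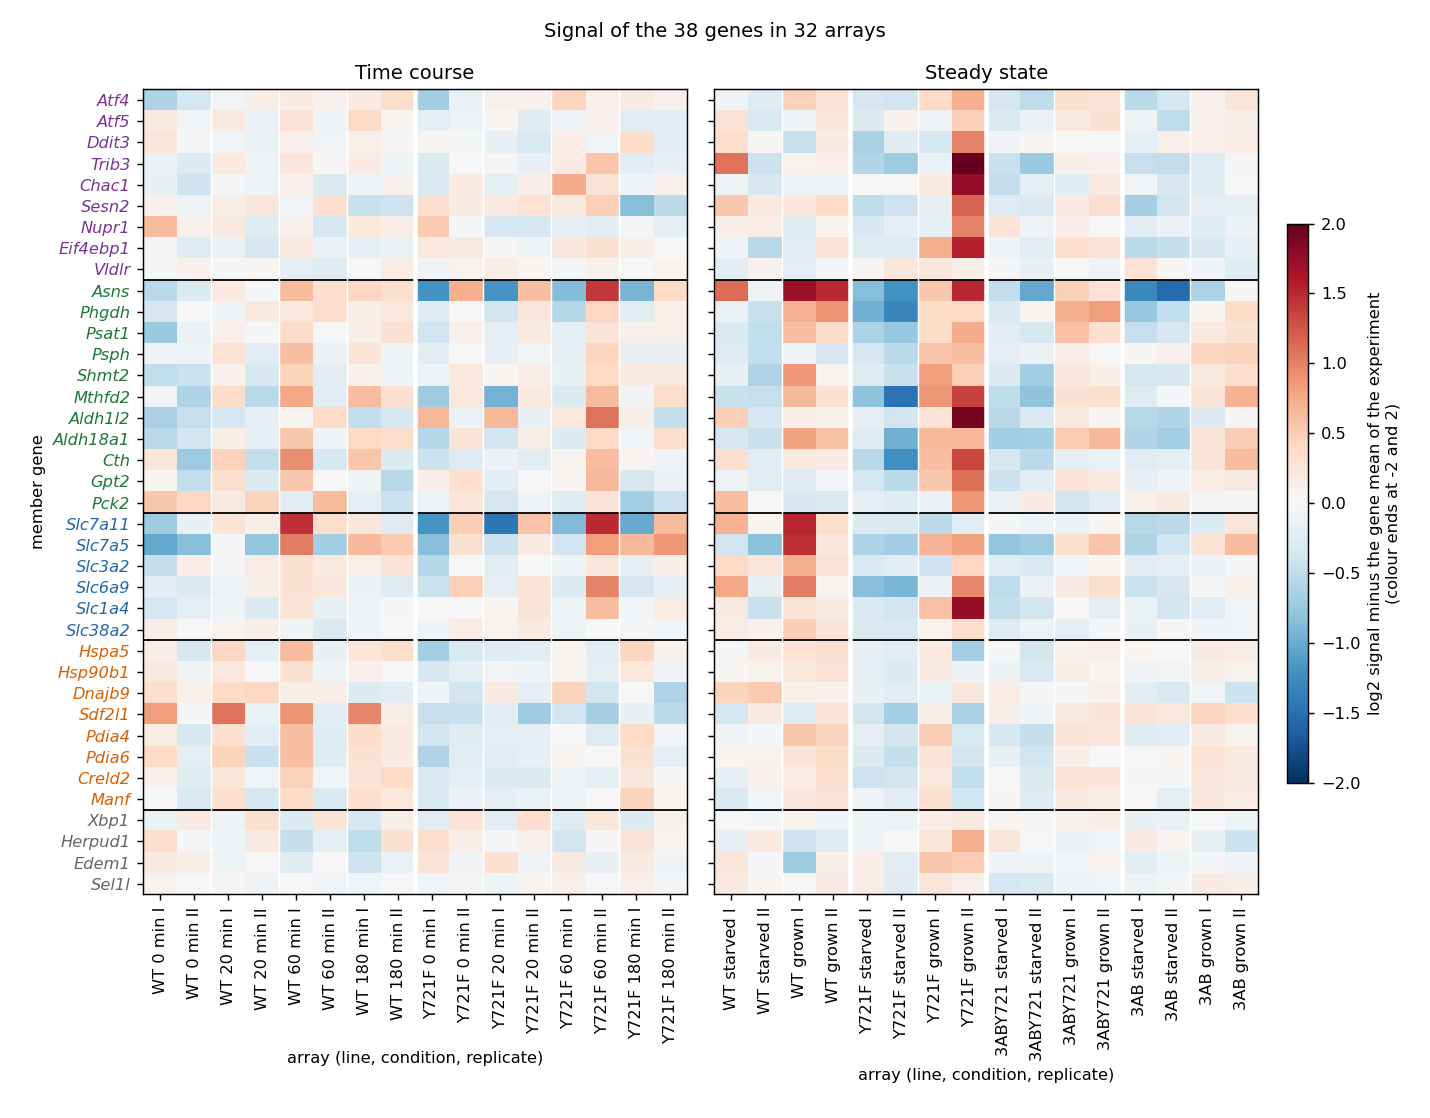
Log2 signal of the 38 genes (rows, coloured by role and separated by black lines) in the 16 time-course arrays (left) and 16 steady-state arrays (right), each minus that gene's mean in the experiment; colours end at -2 and 2. Enzyme rows are mostly red in grown and blue in starved arrays of the steady state, and the last array of grown Y721F (II) is red for Trib3 (10.24) and blue for Hspa5 (11.82).

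The 2 arrays of grown Y721F differed from each other across this list. Trib3, a pseudokinase that damps Atf4 signalling, read 7.27 in array I and 10.24 in array II, against 7.46 and 7.49 in grown WT, 7.52 and 7.48 in 3ABY721 and 7.13 and 7.36 in 3AB. Chac1, which degrades glutathione, read 7.70 and 9.26, and Ddit3 6.84 and 8.18. Only array II stood above the grown arrays of the other lines for these genes.

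Sesn2, an inhibitor of mTORC1 that senses leucine, read 7.57 and 8.88, Nupr1 7.40 and 8.56, and the folate enzyme Aldh1l2 6.08 and 7.75. In total 8 of the 38 genes were higher by over 1 in array II and 0 were lower by that much, while 1.46% of all genes differed by over 1 in either direction. The ER chaperones went the other way: 7 of 8 were lower in array II, by a median of -0.71 over the 8. Hspa5 read 12.69 in array I and 11.82 in array II, and Pdia4 11.80 and 11.01. Of genes of the same pathways outside the list, Atf3 (1.93), Ero1a (1.79) and Ppp1r15a (1.61) were higher in array II, and the chaperone Hyou1 (-1.30) and the folate enzyme Mthfd1 (-1.12) were lower. The cause was not tested, and with 2 arrays neither can be called the odd one.

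**Figure D4:**
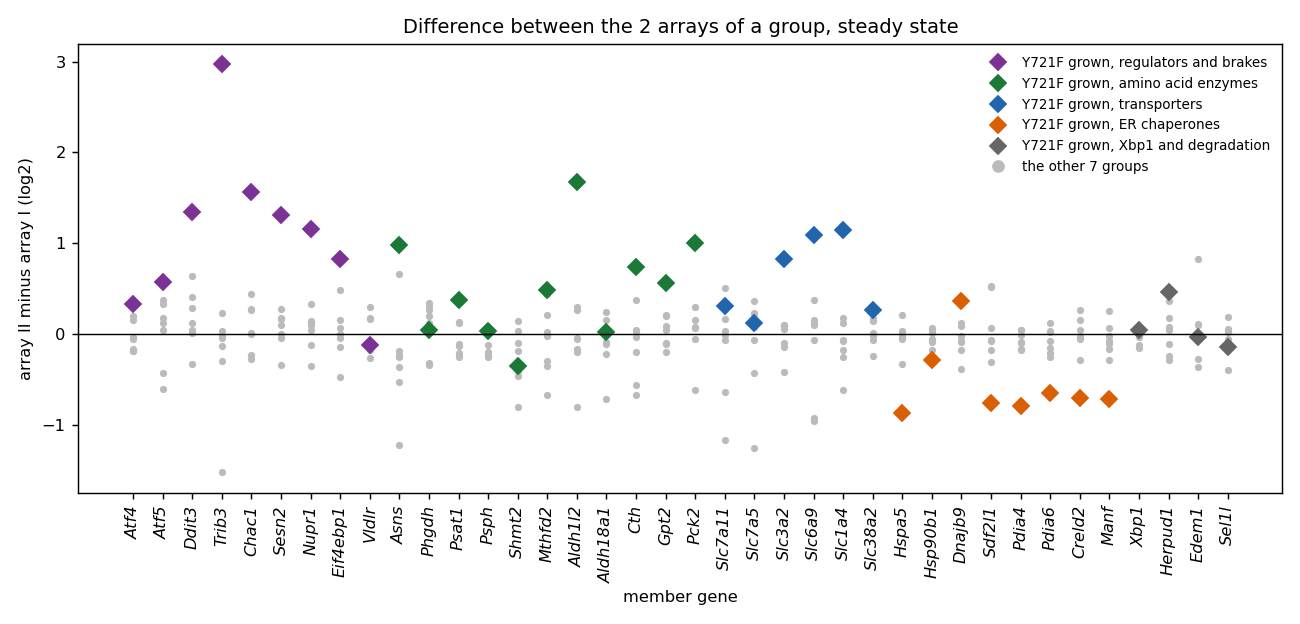
Array II minus array I (log2) for each of the 38 genes in the 8 steady-state groups; diamonds are grown Y721F, coloured by role, and grey points the other 7 groups. The diamonds reach 2.97 at Trib3 and go down to -0.87 at Hspa5; the other groups reach -1.52 at Trib3 in starved WT.

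Leaving out 1 array changed the Y721F counts. Without array II of grown Y721F, 14 genes rose on growth in CSF-1 (3.51% of all genes were called). Of the 15 listed above, Slc7a5, Slc6a9 and Aldh1l2 were no longer called, while the chaperones Pdia4 (0.78, adjusted p = 0.0147 by limma) and Pdia6 (0.65, adjusted p = 0.0432) were. Without array I, 23 genes rose (6.17% of all genes), with Trib3 at 3.50, Chac1 at 1.76 and Sesn2 at 1.62; without array II these 3 were at 0.53, 0.20 and 0.31, none of them called. Without array II of starved Y721F 9 rose (1.15% of all genes called). In WT the count was 2 without array I of grown WT (1.84%), 9 (8 higher, 1 lower) without its array II (10.0%), and 3 without array II of starved WT (3.46%). In 3ABY721 it was 0 without array II of the grown cells (0.266%), 1 without array I of the grown (0.476%) or of the starved cells (0.321%), and 2 without array II of the starved cells (0.572%).

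Next, lines with and without Tyr-721 were set against each other in the same condition. Grown in CSF-1, Y721F had 6 genes higher than WT (2.94% of all genes) and 1 lower (4.94%). Psph, which frees serine from phosphoserine, read 8.08 and 8.11 in Y721F and 7.43 and 7.18 in WT (0.79, SE 0.13, adjusted p = 0.00173 by limma). Gpt2, a mitochondrial alanine transaminase, read 7.87 and 8.43 against 7.07 and 7.27 (0.98, SE 0.17, adjusted p = 0.00184). These 2 stayed called without any 1 of the 4 arrays.

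Eif4ebp1 read 10.48 and 11.31 in grown Y721F against 9.56 and 10.05 in grown WT (1.09, SE 0.23), and Slc1a4 6.63 and 7.78 against 6.30 and 6.22 (0.95, SE 0.28). Edem1 (11.62 and 11.59 against 10.37 and 11.20) and Herpud1 (10.21 and 10.67 against 9.54 and 9.72) were higher by 0.82 and 0.81. Edem1 of WT itself differed by 0.83 between its arrays. Slc7a11 was the 1 lower gene, at 5.02 and 5.33 in Y721F against 7.07 and 5.90 in WT (-1.31, SE 0.30, adjusted p = 0.0114 by limma). In this gene array II minus array I of grown WT was -1.17. The call was lost without array I of grown WT, and also without array I of grown Y721F. Asns at -0.59, Atf4 at 0.20, Ddit3 at 0.46 and Xbp1 at 0.17 were not called. The ER chaperones were below WT in 8 of 8 cases, with a median of -0.34 and 0 called; Hspa5 was at -0.54 (adjusted p = 0.120). Array II of grown Y721F carried most of this: without it the chaperones differed by -0.23 (Dnajb9) to 0.11 (Sdf2l1), Hspa5 by -0.11, and 0 were called. Without array I, Hspa5 (-0.98), Pdia4 (-0.80), Creld2 (-0.72), Pdia6 (-0.69) and Manf (-0.67) were called lower. The count of 7 became 4 (Psph and Gpt2 higher, Slc7a11 and Slc3a2 lower) without array II of grown Y721F (4.32% of all genes called), 19 (14 higher and those 5 chaperones lower) without its array I (12.3%), and 2 without array I of grown WT (4.63%).

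Starved, Y721F had 5 genes lower than WT (7.66% of all genes were lower) and 0 higher (3.47%). Asns read 6.42 and 6.06 in Y721F against 8.39 and 7.17 in WT (-1.54, SE 0.36, adjusted p = 0.0110 by limma). Slc6a9 read 6.45 and 6.39 against 8.08 and 7.16 (-1.20, SE 0.35), and Cth 6.27 and 5.60 against 7.17 and 6.61. In these 3 genes array I of starved WT was well above array II.

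Phgdh was lower by 0.84 on the log2 scale (7.65 and 7.31 against 8.48 and 8.16), and Dnajb9, a co-chaperone of BiP, read 8.75 and 8.67 against 9.34 and 9.43 (-0.68, SE 0.15). Arrays of Y721F lay below those of WT in 24 of 38 genes, beside 30.8% of all genes, and above them in 1 (27.6%). Of the 8 ER chaperones, 7 were below WT, with arrays apart in 7 and a median of -0.32, beside -0.005 for all genes. Starved Y721F also had the lowest upper quartile of the steady state, and its part in these differences was not tested beyond quantile normalization, under which Dnajb9 was no longer called. Atf4 (-0.18), Ddit3 (-0.64), Slc7a11 (-0.66), Hspa5 (-0.25) and Xbp1 (-0.07) were not called. The count was 0 without array II of starved Y721F (7.11% of all genes called) and 1 without array I of starved WT (10.5%), in which Trib3 read 8.48 against 6.96 in array II.

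The pair 3AB and 3ABY721, which differ in the same tyrosine, gave no called gene among the 38, grown (1.18% of all genes called) or starved (0.617%). The members with the largest differences grown were Asns (6.64 and 7.30 in 3AB against 7.76 and 7.57, -0.70), Cth (7.08 and 7.46 against 6.65 and 6.70, 0.60) and Phgdh (-0.56). Starved, Asns read 5.99 and 5.74 in 3AB against 6.78 and 6.25 (-0.65, SE 0.36, adjusted p = 0.699 by limma), followed by Mthfd2 (0.52) and Phgdh (-0.51). Arrays of grown 3AB lay below those of grown 3ABY721 in 18 of 38 genes (26.0% of all genes) and above in 8 (26.2%). The cutoff in the series' design text, without adjustment, counted 1 of the 38 grown (3.08% of all genes) and 0 starved (2.33%).

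Whether the lines differ in their growth effect was tested directly. The growth effect in Y721F minus that in WT was called in 0 of 38 genes, and in 18 of 19938 (0.0903%); with the unadjusted cutoff of the series' design text 16 of the 38 passed, beside 7.81% of all genes. The largest differences of effect were Trib3 (2.25, SE 0.90, adjusted p = 0.337 by limma), Cth (1.74, SE 0.36, adjusted p = 0.137) and Mthfd2 (1.34, SE 0.32, adjusted p = 0.235), and the lowest adjusted p was that of Gpt2 (0.0816). The Trib3 value was 3.74 without array I of grown Y721F and 0.77 without its array II, then below that of Cth (1.37) and Mthfd2 (1.10). Without array I of grown Y721F 14 genes were called (3.80% of all genes), without array II of grown WT 3 (2.08%), and without any other 1 array of the 4 groups 0. The 15 genes called in Y721F and the 6 called in WT are thus not shown to differ between the lines. For 3AB minus 3ABY721 the count was also 0 of 38 (0.00502% of all genes), and 0 with the unadjusted cutoff (0.993%); the largest difference was that of Slc7a11 (0.50, SE 0.42).

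In the time course the same test passed 1 of the 38 genes, at 1 of the 3 later times of 1 line. The 3 comparisons of a line share its 0 min arrays. In WT 0 genes were called at 20 min (0.160% of all genes), 60 min (0.632%) and 180 min (2.16%), with 1, 7 and 8 of the 38 at an unadjusted p under 0.05, beside 436, 2361 and 2918 of 19938 genes. In Y721F 0 were called at 20 min (0.0802%) and 60 min (0.176%), with 2 and 3 at an unadjusted p under 0.05 beside 1357 and 1064 of 19938, and Sesn2 fell at 180 min (0.0903% of all genes fell). Sesn2 read 8.18 and 8.01 at 0 min and 7.0 and 7.32 at 180 min in Y721F (-0.94, SE 0.16, adjusted p = 0.0421 by limma), a call lost without any 1 of the 4 arrays. In WT it read 7.93 and 7.74 at 0 min and 7.41 and 7.43 at 180 min (-0.41), which was not called. At 20 min the largest differences were those of Slc7a11 (0.63) and Slc7a5 (0.54) in WT and of Nupr1 (-0.59) and Atf4 (0.51) in Y721F.

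**Figure D5:**
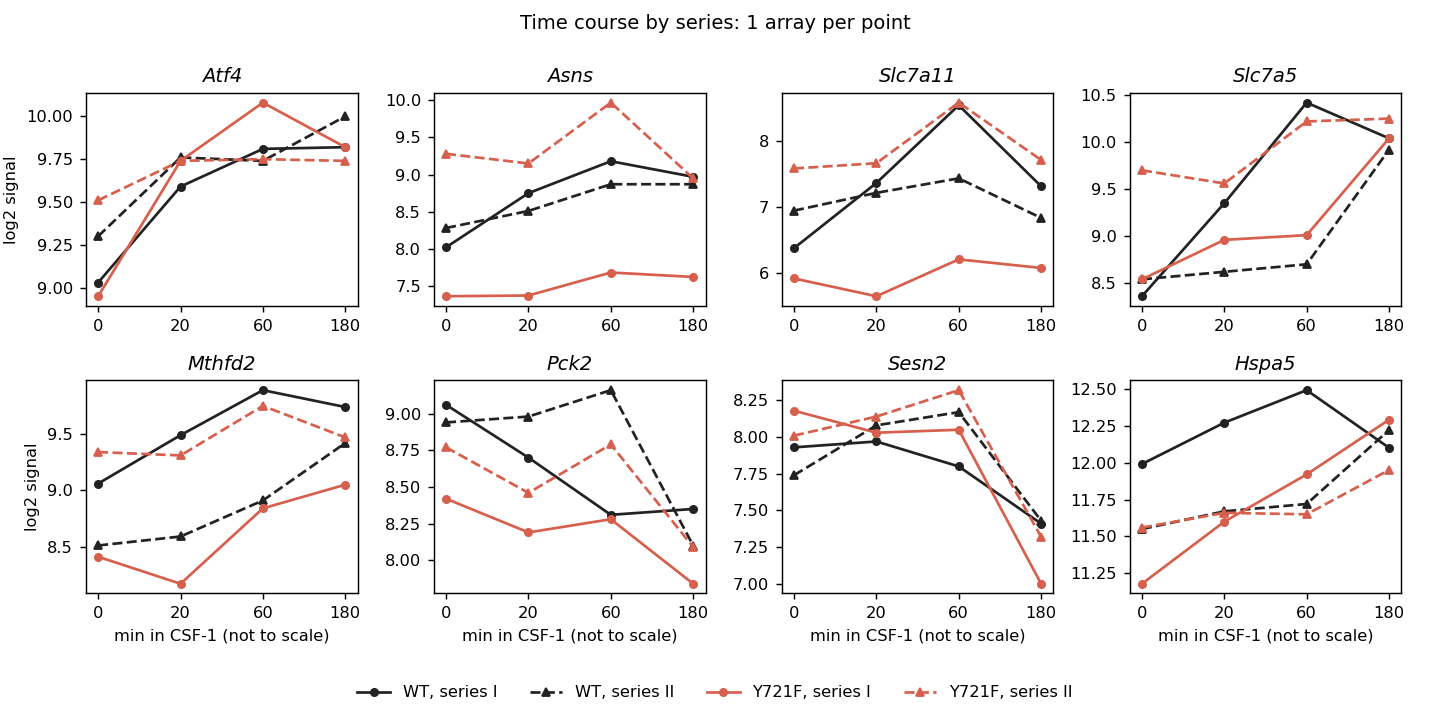
Log2 signal of 8 of the genes at 0, 20, 60 and 180 min in CSF-1 (spaced evenly, not to scale) in WT (black) and Y721F (red), 1 array per point, with series I as solid lines and circles and series II as dashed lines and triangles. The Y721F series differ in level for Asns (7.36 and 9.28 at 0 min) and Slc7a11 (5.92 and 7.59), and Atf4 lies above its 0 min value at each later time in every series.

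Arrays with the same number deviated together within each line of the time course, with correlations of 0.487 to 0.734 in WT and 0.353 to 0.648 in Y721F, so a fit with the series number as a block was set beside the first. With the block 3 genes rose in WT at 60 min (2.76% of all genes): Asns, Slc7a11 and Aldh18a1. At 180 min 6 rose (4.63%), namely Slc7a5, Aldh18a1, Mthfd2, Asns, Atf4 and Psat1, and Pck2 fell (3.18%). In Y721F the block called Hspa5 higher (2.65%) and Sesn2 lower (2.74%) at 180 min.

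Atf4 read 9.03 and 9.30 in WT at 0 min, 9.59 and 9.76 at 20 min, 9.81 and 9.74 at 60 min and 9.82 and 10.00 at 180 min. In Y721F it read 8.95 and 9.51, then 9.74 and 9.74, 10.08 and 9.75, and 9.82 and 9.74. Arrays at each later time lay above both 0 min arrays in both lines. At 180 min in WT the difference was 0.75 (SE 0.18), with an adjusted p of 0.0523 by limma and 0.0131 with the block.

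Slc7a11 read 6.38 and 6.95 in WT at 0 min, 8.55 and 7.44 at 60 min and 7.32 and 6.84 at 180 min. Its 60 min difference was 1.33 (SE 0.87, adjusted p = 0.594 by limma; 0.0251 with the block), and it was 0.41 at 180 min, when the arrays overlapped again. Slc7a5 read 8.36 and 8.54 at 0 min and 10.04 and 9.92 at 180 min in WT (1.53, SE 0.55, adjusted p = 0.187 by limma; 0.0154 with the block), and 8.54 and 9.70 against 10.04 and 10.25 in Y721F (1.03, not called with or without it). At 60 min the WT series parted, with 10.42 in I and 8.70 in II.

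Asns read 8.02 and 8.28 in WT at 0 min and 9.18 and 8.87 at 60 min (0.88, SE 0.79, adjusted p = 0.721 by limma; 0.0233 with the block). In Y721F it read 7.36 and 9.28 at 0 min and 7.68 and 9.97 at 60 min (0.51). Series II of Y721F was above series I by 1.33 to 2.29 at the 4 times, a gap wider than any change within a series.

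Pck2 had the opposite sign, with 9.06 and 8.94 at 0 min and 8.35 and 8.10 at 180 min in WT (-0.78, SE 0.26, adjusted p = 0.155 by limma; 0.0252 with the block). Hspa5 read 11.18 and 11.56 in Y721F at 0 min and 12.29 and 11.95 at 180 min (0.75, SE 0.27, adjusted p = 0.230; 0.0381 with the block), and 11.99 and 11.55 against 12.10 and 12.22 in WT (0.39). Ddit3 (-0.24 to 0.07) and Xbp1 (-0.14 to 0.10) gave small differences from 0 min at each time in both lines.

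Within a series, 23 of the 38 genes were above their own 0 min value in both WT series at 180 min, 7 below in both and 8 split. In Y721F the counts were 14, 9 and 12, with ties left out. These counts were not made over all genes, so they describe the list and test no difference between the lines. The median difference of the 38 at 180 min was 0.17 in WT and 0.06 in Y721F, beside -0.005 and -0.01 for all genes. The difference between the lines' responses was called in 0 of 38 genes at 20, 60 and 180 min, with or without the block. It was called in 0 of 19938 genes without the block (0%), and with it in 0.00502% at 20 and 60 min and 0 at 180 min. The largest differences of response were those of Slc7a11 at 20 min (-0.73, SE 1.22) and 60 min (-0.69) and of Asns at 180 min (-0.81, SE 1.11). At 0 min 0 genes differed between Y721F and WT (0.727% of all genes called). The ER chaperones were below WT in 8 of 8 cases at 0 min, with a median of -0.35 beside -0.015 for all genes. Their arrays were apart in 4 of the 8, beside 21.9% of all genes. In these 8 genes array II of WT was itself below array I, by a median of -0.39. The largest differences there were Sdf2l1 (10.41 and 10.42 in Y721F against 11.70 and 10.83 in WT, -0.85, adjusted p = 0.615 by limma), Aldh1l2 (0.83) and Slc7a5 (0.67). Series numbers do not pair arrays across lines by the labels.

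Other genes of the same pathways give the setting. Of 67 listed, 62 were measured: eIF2 kinases and factors, cytosolic tRNA synthetases, further transporters and enzymes, and further ER genes. On growth in CSF-1 11 of 62 rose in WT (2.30% of all genes), 14 in Y721F (3.48%), 6 in 3ABY721 (0.742%) and 1 in 3AB (0.431%), and 0 fell. tRNA synthetases, which load amino acids onto their tRNAs, made up 8 of 11, 10 of 14, 5 of 6 and 1 of 1 of them, out of 18 measured. Slc7a1, the carrier of cationic amino acids, rose by 0.92 in WT, 1.54 in Y721F and 0.98 in 3ABY721, and the isoleucyl synthetase gene Iars rose in 4 of 4 lines (0.72 in 3AB). Ero1a, the oxidase that feeds disulfide bonds to ER proteins, read 9.50 and 9.71 in starved and 11.50 and 13.29 in grown Y721F (2.79).

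In the time course Ppp1r15a (GADD34), the subunit that directs a phosphatase to eIF2, rose at 20 min in both lines, from 6.67 and 6.99 to 8.65 and 9.42 in WT and from 7.01 and 6.99 to 8.97 and 8.83 in Y721F. It was back near 7 by 180 min (6.83 and 7.03 in WT). Ddit4, an mTORC1 inhibitor, fell at 180 min in both, from 7.14 and 7.12 to 6.57 and 6.49 in WT and from 7.77 and 7.47 to 6.98 and 6.81 in Y721F, and Rars rose at 180 min in WT. Between grown Y721F and grown WT, 2 of 62 were higher (2.94% of all genes) and 5 lower (4.94%). The largest of these differences were those of Slc38a1 (8.45 and 8.08 against 9.73 and 9.85, -1.53) and Ero1a (11.50 and 13.29 against 10.42 and 11.48, 1.45). Ero1a also differed within both groups, array II minus array I being 1.79 in grown Y721F and 1.06 in grown WT. Starved, 6 of 62 were lower in Y721F than in WT (7.66%), led by Slc38a1, Slc7a1 and Eif2ak2.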

How the data were processed

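The deposited table gives 1 log2 value for each of 35556 probe sets in each of 32 arrays. Its range and quartiles set the log2 scale, since no source names a unit. How the authors corrected, summarized and normalized the signals, and on which build, is not given in the sources used here. Probe sets were named by the array's annotation; 21789 name 1 gene, and the one with the highest mean over 32 arrays stood for a gene. Time course and steady state were fitted separately by lmFit and eBayes of limma 3.58.1 under R 4.3.3, each with 8 group means and 8 residual degrees of freedom, for 20 comparisons in all. limma and the fold of 1.5 are those of the series' design text; the adjustment was added here. Motifs were searched with Python 3.11.15. No p-value rests on more than 2 arrays per group, whose number limits the precision, and whether replicates came from separate cultures is not stated beyond the word biological.

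The members and lists were chosen with earlier results of these data known. Values per array are given for up to 4 called members per role and comparison whose arrays did not overlap, for up to 3 members where none was called, and for Atf4, Ddit3, Asns, Slc7a11, Hspa5 and Xbp1 throughout; of other pathway genes, up to 3 called per comparison. Genes beyond this rule, among them those that differ within grown Y721F, were named after their values were seen. Series numbers were taken to pair arrays within a line of the time course, where every correlation of same-numbered arrays was over 0.1. The numbers were not taken to pair arrays across lines (0.0556 to 0.290) or in the steady state (0.0423 to 0.280). The fit was tested on simulated data. Alternatives were the block, quantile normalization, a filter on low signal, the mean of a gene's probe sets, the unadjusted cutoff of the design text, a fit of only the groups compared, and leaving out each array.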

Additional observations from a re-analysis of the deposited data

How the results depend on the processing

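Of 41 called member differences, 0 changed sign under any alternative, 13 stayed called without any 1 array and 6 stayed called under every alternative and omission as well. Percentages in brackets are the share of all genes called. With the unadjusted cutoff of the series' design text, members passing on growth in CSF-1 numbered 9 in 3ABY721 (4.13%) and 9 in 3AB (3.10%), and 16 (7.81%) for the difference of growth effects between Y721F and WT. The same cutoff gave 12 for Y721F against WT grown (10.2%), 8 starved (12.5%) and 1 at 0 min (3.53%), and 1 for 3AB against 3ABY721 grown (3.08%). In the time course it gave 4 in WT at 60 min (4.14%) and 5 at 180 min (7.10%), and 1, 1 and 3 in Y721F at 20, 60 and 180 min (0.642%, 1.54% and 5.27%). Fitting only the groups compared gave 0 in WT grown against starved (0.471%), 8 in Y721F (1.08%), 9 in 3ABY721 (3.81%), 1 in 3AB (0.858%), 0 for Y721F against WT grown (1.05%), 1 in WT at 180 min (1.03%) and 0 in Y721F at 180 min (0.171%). Quantile normalization left 1 in 3AB grown against starved (0.662%), and leaving out low-signal genes gave 1 in WT at 180 min (3.10%). With the replicate block 3 were called in WT at 60 min (3.74%), 7 at 180 min (7.81%), 2 in Y721F at 180 min (5.39%) and 1 for Y721F against WT at 0 min (3.99%), where labels do not pair the lines; in the steady state, where arrays share only a number, the block moved no count by more than 1.5 times. Leaving out each array in turn gave 2 to 9 in WT grown against starved (366 to 1994 of all genes), 9 to 23 in Y721F (229 to 1230), 0 to 2 in 3ABY721 (53 to 114) and 0 to 0 in 3AB (20 to 27). It gave 2 to 19 for Y721F against WT grown (862 to 2449), 0 to 5 starved (1417 to 2092), 0 to 14 for the difference of growth effects (4 to 757) and 0 to 0 in Y721F at 180 min (0 to 86). The cause of these shifts was not tested. Fits that leave arrays out also rest on fewer arrays.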
